A study of Schizosaccharomyces pombe with 30 samples.

Results

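RNA of 2 fission yeast strains was compared through their ratios to wild-type RNA: 3 arrays labelled pht1∆ usp107DAmP were set against 3 arrays labelled pht1∆, 6 of the 30 arrays of the series. Both strains were kept at 30 °C in YES5 medium, with no temperature shift, and harvested in mid-log phase. The wild-type RNA on the arrays was of cells grown in the same way, carried Cy3 and has no arrays of its own, while mutant RNA carried Cy5 throughout. The pht1∆ strain lacks the gene of the histone variant H2A.Z by its label, and the other strain carries that deletion together with usp107DAmP, an allele of a U1 snRNP protein gene. The members were taken by title, and the contrast is the mean of the first 3 arrays minus the mean of the other 3. Each splicing array reads an exon feature for 5069 genes (here the transcript level), 4836 intron features and 4651 exon-exon junction features, each given as the log2 ratio of mutant to wild-type signal. The labels do not say whether the replicates are separate cultures, so p-values measure the spread between arrays, which may be technical.

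H2A.Z replaces H2A in some nucleosomes, above all near transcription start sites, and is placed there by the SWR complex, whose ATPase is Swr1. The U1 snRNP binds the 5′ splice site of a new transcript in the first step of spliceosome assembly, and Usp107 is one of its protein components. A DAmP allele disturbs the 3′ end of a gene with the aim of lowering its mRNA. An intron kept in a transcript raises the intron feature and lowers the junction feature of the exons on both sides, relative to the transcript. The splicing index used below is the intron feature minus the exon feature of the same gene. By its labels, the comparison asks what the usp107DAmP allele adds in cells that lack H2A.Z.

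On the double-labelled arrays the pht1 feature went against its label, and the usp107 feature was not called lower. The pht1 feature stood at −1.08, −0.43 and −0.44 on the pht1∆ arrays, and at −0.07, 0.06 and 0.08 on the arrays labelled pht1∆ usp107DAmP. The groups did not overlap, and the difference of 0.67 ± 0.14 (standard error) passed the test with an adjusted p of 0.00123. On the 3 arrays labelled usp107DAmP alone the feature was 0.16, 0.21 and 0.13. In the other groups whose labels name the pht1 deletion, its mean was −0.74 in pht1∆ at 16 °C and −0.03 in pht1∆ prp16DAmP at 16 °C. The sources do not place the probes of this feature relative to the deletion, so the check may not bear on it, and the arrays of both strains are called by their labels throughout, and the second set is called double-labelled. The usp107 feature was 0.07, 0.25 and −0.33 on the arrays labelled usp107DAmP alone. It was 0.02, 0.02 and 0.10 on the pht1∆ arrays and −0.01, 0.45 and −0.78 on the double-labelled arrays (adjusted p = 0.524). The features of swr1 (difference −0.20 ± 0.15) and prp16 (−0.47 ± 0.28) were not called either.

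Double-labelled replicate 3 stood apart from its group. Across the 5069 exon features it correlated with r of 0.235 and 0.326 with replicates 1 and 2, which correlated with r of 0.726 with each other. It resembled usp107DAmP replicate 3 instead (r = 0.780), and replicates 1 and 2 also resembled the usp107DAmP array of their own number most (0.691 and 0.716), against 0.0499 to 0.322 for all pairs with pht1∆ arrays. Replicate SD averaged over features was 0.245 in the double-labelled and 0.210 in the pht1∆ group, the highest of the 10 groups (0.0839 to 0.201 in the others). Whether the double-labelled RNA carried the pht1 deletion was not tested; without it, the contrast would be one of usp107DAmP with pht1∆, and these cannot be told apart here. A fit over all 30 arrays lends both groups a spread smaller than their own, so counts below are followed by those called in a fit over the 12 arrays at 30 °C as well. Genes are not independent replicates in these correlations. On pht1∆ replicate 1 32.8% of intron features repeated a value of another intron, against 4.4% and 5.31% on the other pht1∆ arrays and at most 2.54% on the double-labelled arrays.

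At the level of transcripts, the arrays labelled pht1∆ usp107DAmP were near wild type for 3 M-cell transcripts that were low, and for gal10 and some hexose transporter transcripts that were high, on the pht1∆ arrays. Most transcripts of the mitochondrial genome, and some of ribosomal proteins and of a few stress genes, were higher. In the fit over 30 arrays 782 of 5069 genes (15.4%) were higher and 725 (14.3%) lower at an adjusted p under 0.05. Without double-labelled replicate 2 the total of 1507 became 857, and without replicate 3 it became 1951. In the fit over 12 arrays as well, 183 genes (3.61%) were higher and 190 (3.75%) lower, and 370 of them were also called without double-labelled replicate 3. With the 6 arrays alone 5 genes passed. The median difference over all genes was 0.01.

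The largest rises were those of 3 genes that M cells express. Transcripts of mfm2, which encodes a precursor of the M-factor pheromone, stood at −3.16, −2.06 and −3.39 on the pht1∆ arrays and at 0.24, 0.40 and 0.24 on the double-labelled arrays. All double-labelled arrays lay above all pht1∆ arrays, by 3.16 ± 0.29 or 8.95-fold (adjusted p = 9.21e-08). The usp107DAmP arrays were near 0 as well, with a mean of −0.04. For mat1-Mc, the gene of the M-cell transcription factor at the expressed mating-type locus, the values were −3.25, −2.14 and −3.17 against 0.24, −0.34 and −0.14, a difference of 2.77 ± 0.23. The silent copy mat3-Mc gave 2.75 ± 0.25, but both copies share sequence and their signals cannot be assigned to one of them. These 3 genes and gal10 were called in the fits over 30, 12 and 6 arrays.

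Further rises reached beyond M cells. The small heat shock protein gene hsp9 stood at −0.06, 0.95 and 0.85 on the pht1∆ arrays and at 3.38, 3.13 and 1.77 on the double-labelled arrays (2.18 ± 0.36, adjusted p = 0.000207). It was as high on the arrays labelled usp107DAmP alone, with a mean of 2.51. The cytosolic thioredoxin gene trx1 gave −0.46, −0.40 and −0.09 against 1.83, 1.65 and 0.73 (1.72 ± 0.33), and usp107DAmP had a mean of 1.65. Transcripts of str3, of a family of siderophore-iron transporters, rose by 1.89 ± 0.27, from −1.44, −0.91 and −2.16 to 1.03, 0.39 and −0.27. The subtelomeric gene nrg1 rose by 1.90 ± 0.42, though all 3 pht1∆ arrays (−2.52, −2.72 and −2.01) and 2 of the double-labelled arrays (−1.53, 0.88 and −0.90) lay below wild type, and it missed the threshold over 12 arrays (adjusted p = 0.0549). SPBC1348.13 was higher by 1.80 ± 0.32.

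**Figure D1:**
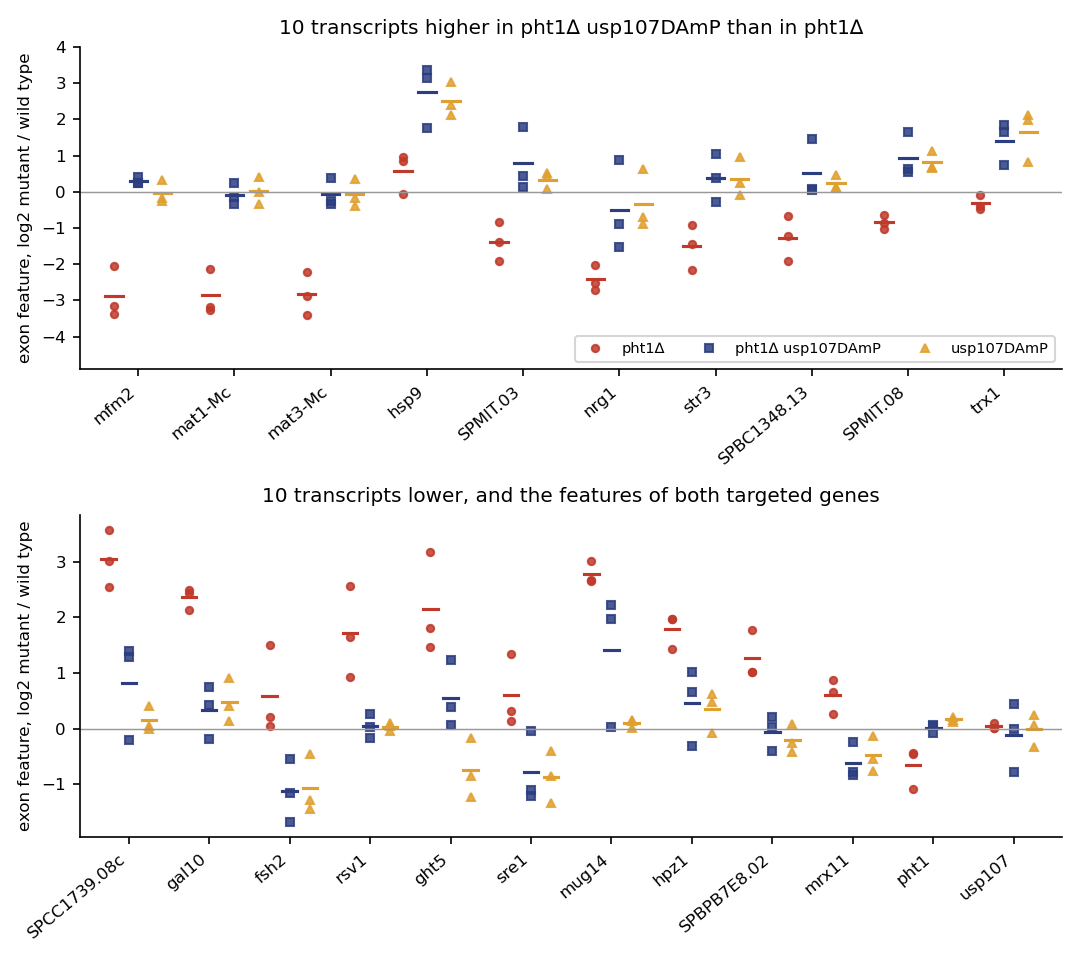
Exon features (log2 of mutant over wild type) of the 10 called transcripts with the largest rises, the 10 with the largest falls and both targeted genes. Points are arrays and short bars the means of 3; usp107DAmP arrays are shown for reference. In mfm2 and both Mc genes the pht1∆ arrays lie below −2 while the arrays of both other groups lie near 0.

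The largest falls were of genes that stood high on the pht1∆ arrays. SPCC1739.08c was at 3.58, 2.55 and 3.01 there and at 1.30, 1.40 and −0.21 on the double-labelled arrays, lower by 2.22 with a standard error of 0.30 (adjusted p = 4.99e-05). For gal10, the epimerase of the galactose pathway, the values were 2.44, 2.14 and 2.5 against 0.75, 0.42 and −0.18 (−2.03 ± 0.19, 9.21e-08). The zinc finger factor gene rsv1 gave 2.57, 0.92 and 1.64 against −0.17, 0.27 and 0.03 (−1.67 ± 0.31). The glucose transporter gene ght5 fell from 3.18, 1.46 and 1.82 to 0.07, 1.23 and 0.38 (−1.59 ± 0.35), with an adjusted p of 0.0591 over 12 arrays. In each of these genes the double-labelled arrays lay nearer to wild type than the pht1∆ arrays.

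Other falls ended below wild type, near it or still above it. Transcripts of fsh2 stood at 1.5, 0.05 and 0.21 on the pht1∆ arrays and at −1.68, −1.15 and −0.55 on the double-labelled arrays (−1.71 ± 0.31). Those of sre1, a membrane-bound transcription factor that responds to sterols and oxygen, went from 1.35, 0.15 and 0.32 to −1.21, −1.11 and −0.04 (−1.39 ± 0.30, adjusted p = 0.064 over 12 arrays). The means of fsh2 and sre1 on usp107DAmP arrays were −1.05 and −0.86. Transcripts of mrx11 fell by 1.22, from a mean of 0.60 to −0.62. Those of hpz1 fell by 1.34, from 1.79 to 0.46, and those of SPBPB7E8.02 by 1.32, from 1.27 to −0.05. The meiotic gene mug14 differed by −1.37 ± 0.39, but double-labelled replicate 3, at 0.03, lay far from the others at 1.98 and 2.23, and without that array the difference was −0.68 with an adjusted p of 0.0804.

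**Figure D2:**
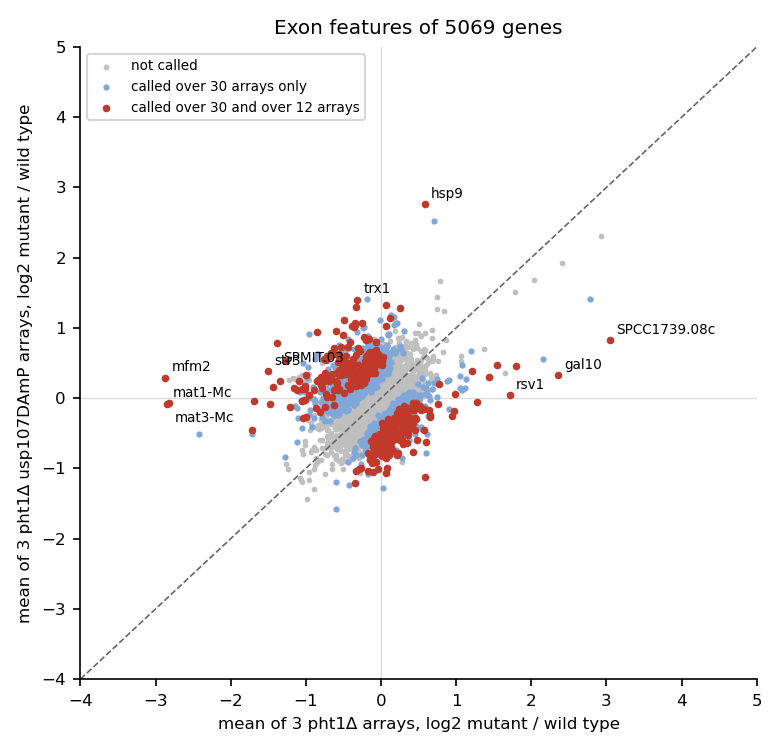
Mean exon feature of the 3 arrays labelled pht1∆ usp107DAmP against that of the 3 pht1∆ arrays for 5069 genes (log2 of mutant over wild type), with equality dashed. Red marks genes called over 30 and over 12 arrays. Of these, mfm2 and gal10 lie near 0 on the vertical axis. SPCC1739.08c (pht1∆ 3.05, double-labelled 0.83) and SPMIT.03 (−1.38 and 0.78) lie near 0 on neither axis.

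Some genes of both mating-type lists were called, in opposite directions. Of 11 M-cell genes measured 4 were higher and 0 lower, and of 4 P-cell genes 0 were higher and 3 lower, beside 15.4% and 14.3% of all genes. The fit over 12 arrays also called 3 of these M-cell and 2 of these P-cell genes. The other 7 M-cell genes missed the threshold, with differences down to −0.47, and 4 of the 10 listed P-cell genes were measured. The M-cell call of mam2, the gene of the P-factor receptor (0.68 ± 0.25), was lost without pht1∆ replicate 3 (0.31, adjusted p = 0.341) and without any 1 of the double-labelled replicates (adjusted p from 0.0508 to 0.157). The other M-factor genes, mfm1 (0.29) and mfm3 (−0.08), did not pass, in contrast to mfm2. Among P-cell genes, map3, the receptor of M-factor, stood at 0.88, 0.23 and 0.61 on the pht1∆ arrays and at −0.36, −0.71 and −0.31 on the double-labelled arrays (−1.03 ± 0.18). The P-factor gene map2 fell by 0.91, and the protease gene sxa1 by 0.31. The list medians per pht1∆ array were −0.22, −0.19 and −0.23 for M-cell and 0.45, 0.28 and 0.50 for P-cell genes. On the double-labelled arrays they were 0.24, 0.15 and −0.15 for M-cell and −0.20, −0.16 and −0.10 for P-cell genes. In bulk RNA fewer cells of a type and less RNA per cell cannot be told apart, and the part of mating type in the other differences was not tested. Among 16 regulators of mating and early meiosis 2 were higher (mam4 and ste6) and 2 lower (mei3 and gpa1), and none of the 4 was called over 12 arrays. Each of these 4 calls was lost without at least 1 array, mam4 without pht1∆ replicate 3 (0.43) or double-labelled replicate 2 (0.66), and mei3 without pht1∆ replicate 2 (−0.50).

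Most transcripts of the mitochondrial genome were higher, in a list that was added after its values had been seen. Of 11 features 9 were higher and 0 lower, beside 15.4% and 14.3% of all genes. Over 12 arrays as well 6 were higher, and the 11 differences ran from 0.42 to 2.17 with a median of 1.24. SPMIT.03 stood at −1.92, −1.39 and −0.84 on the pht1∆ arrays and at 0.14, 1.79 and 0.43 on the double-labelled arrays (2.17 ± 0.37). SPMIT.08 went from −1.04, −0.87 and −0.63 to 0.64, 1.65 and 0.54 (1.79 ± 0.33). SPMIT.06 was higher by 1.56 and SPMIT.07 by 1.38, the second with an adjusted p of 0.0519 without double-labelled replicate 2. These features lie on one short chromosome and are not independent. The list median per array was −0.63, −0.38 and −0.37 in pht1∆, 0.33, 1.09 and 0.25 in the double-labelled arrays, and 0.52, 0.43 and 0.25 in usp107DAmP.

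Some ribosomal protein genes were called higher and fewer lower. Among all genes 15.4% were higher and 14.3% lower, and 3.61% and 3.75% over 12 arrays as well. For the small subunit 16 of 55 were higher and 2 lower, and for the large subunit 17 of 74 were higher and 4 lower, with list medians of 0.27 and 0.17. Over 12 arrays as well 6 and 6 were higher and 0 and 2 lower. The gene rpl3801 gave −1.20, −1.88 and −0.94 on the pht1∆ arrays against 0.35, 0.18 and 0.21 (1.59 ± 0.22, adjusted p = 6.31e-05). The gene rps29 gave −0.39, −1.20 and −0.27 against 0.91, 1.03 and 0.19 (1.33 ± 0.23), and rps21 and rps23 were higher by 1.34 and 1.11. Many ribosomal proteins are encoded by near-identical gene pairs, so a value may hold signal of both members. Of 52 mitochondrial ribosomal protein genes 7 were higher and 9 lower, with mrp11 highest (0.99 ± 0.14) and mrx11 lowest (−1.22 ± 0.16), and 1 and 5 over 12 arrays as well. Without double-labelled replicate 3 the lower count was 15.

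Among core histones and H2A.Z, 6 of 11 genes were higher and 0 lower, beside 15.4% and 14.3% of all genes. The 6 include pht1 itself, which the labels of both strains give as deleted. The median difference of the list was 0.50, and 2 genes (hht1 and pht1) were called over 12 arrays as well. The H4 gene hhf1 stood at −0.41, −0.59 and −0.38 on the pht1∆ arrays and at 0.42, 1.17 and 0.59 on the double-labelled arrays (1.19 ± 0.29). The H3 gene hht1 was higher by 0.80 ± 0.21. Histone genes share sequence too. In the ubiquitin list 2 of 5 genes were higher, both over 12 arrays as well: the polyubiquitin gene ubi4 went from −0.03, 0.13 and 0.64 to 1.71, 1.18 and 0.95, and the ubiquitin-ribosomal fusion gene ubi3 was higher by 1.11 ± 0.22.

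In the list of oxidative and metal stress 5 of 22 genes were higher and 0 lower, beside 15.4% and 14.3% of all genes. Their median difference was 0.31. The fit over 12 arrays also called 1 of them, and 9 were higher without double-labelled replicate 3. The largest difference was that of cmt2, at 0.18, 0.85 and 1.07 on the pht1∆ arrays and at 2.84, 4.10 and 0.61 on the double-labelled arrays (1.82 ± 0.53). Its groups overlap, and the call was lost without double-labelled replicate 2 (1.02, adjusted p = 0.134) and without pht1∆ replicate 1 (1.56, adjusted p = 0.0565). The peroxiredoxin gene pmp20 gave −0.82, −1.59 and −0.69 against 0.44, 1.39 and −0.34 (1.53 ± 0.40), a call lost without double-labelled replicate 2 (1.08, adjusted p = 0.0668). The sulfiredoxin gene srx1 was at 0.06, 0.05 and 0.07 on the pht1∆ arrays, and at 1.07, 0.64 and 0.13 on the double-labelled arrays. Its call was lost without double-labelled replicate 1 (adjusted p = 0.144) or 2 (0.056).

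Of 17 heat shock chaperone genes 2 were higher and 2 lower (median 0.01), of which 1 and 1 over 12 arrays as well. Over 30 arrays these counts are near the shares of all genes, 15.4% higher and 14.3% lower. Beside hsp9, hsp10 was higher by 0.57, a call lost without any 1 of 5 arrays (without double-labelled replicate 2 it was 0.39, adjusted p = 0.219). The co-chaperone gene cdc37 fell by 0.66 (adjusted p = 0.0506 without double-labelled replicate 2) and the DnaJ gene mas5 by 0.61. Of 12 iron uptake genes 6 were higher and 1 lower with a median of 0.54, but str3 alone was called over 12 arrays. The ferroxidase gene fio1 (1.32 ± 0.43) rested on pht1∆ replicate 3 at −1.86, without which the difference was 0.67 (adjusted p = 0.214), and was lost without double-labelled replicate 1 as well (1.02, adjusted p = 0.113). The lower member, fep1, encodes the repressor of the iron genes (−0.60).

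Of 15 genes of the galactose cluster and hexose transport 6 were lower, 1 was higher and 8 were not called. Their median difference was −0.41. Among all genes 14.3% were lower and 15.4% higher. Over 12 arrays as well 4 were lower and 0 higher, and without double-labelled replicate 3 5 were lower and 3 higher. The list medians per array overlapped between the groups, at 0.72, −0.0013 and 0.48 in pht1∆ and 0.56, 0.42 and −0.07 on the double-labelled arrays. Beside gal10 and ght5, the hexose transporter gene ght6 gave 1.91, 0.77 and 1.64 against 0.40, 0.42 and 0.08 (−1.14 ± 0.24). The gluconate transporter gene ght3 gave 1.49, 1.21 and 1.94 against 0.93, 0.54 and −0.07 (−1.08 ± 0.20). The higher member was ght8 (0.55). Among 19 genes of glycolysis and fermentation 2 were higher, led by the glycerol phosphate dehydrogenase gene gpd1 (1.01 ± 0.18, the only one of the list called over 12 arrays as well), and 1 was lower, the pyruvate decarboxylase gene pdc1 (−0.42 ± 0.12, adjusted p = 0.0575 without double-labelled replicate 1). Of 7 phosphate starvation genes the acid phosphatase gene pho1 was higher (1.31 ± 0.31), and 2 were lower, including the polyphosphate polymerase gene vtc4 (−0.89 ± 0.20), and of these 3 pho1 alone was called over 12 arrays as well.

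Genes of the splicing machinery were read beside the 15.4% of all genes called higher and the 14.3% called lower. Of 9 U1 snRNP genes usp101, the U1 70K protein gene, was higher (0.91 ± 0.22, from 0.06, −0.54 and −0.11 to 1.40, 0.46 and 0.27), but missed the threshold over 12 arrays (adjusted p = 0.0595). The U1 component gene prp39 was lower (−0.85 ± 0.16, from −0.10, 0.09 and −0.18 to −0.60, −0.81 and −1.31). In the list of U2AF, branch binding and SR proteins 6 of 16 genes were lower and 2 higher (median −0.25), of which 1 and 0 over 12 arrays as well. The SR-like gene rsd1 was lowest at −0.98 ± 0.21 (adjusted p = 0.059 over 12 arrays). Of 54 core spliceosome genes 9 were higher and 11 lower (median 0.03), and 1 and 2 over 12 arrays as well. The lowest was cwf20, at 1.15, 1.03 and 0.76 on the pht1∆ arrays and at 0.07, −0.44 and −0.19 on the double-labelled arrays (−1.16 ± 0.19). Of 9 spliceosome helicase genes 0 passed in limma's fit over 30 arrays and 1 had an unadjusted p under 0.05, with differences from −0.47 to 0.29. Of 25 genes of the SWR and INO80 complexes 2 were higher and 3 lower, 2 and 1 over 12 arrays as well, with vps71, a SWR subunit, at 0.59 ± 0.10 and the ATPase gene ino80 at −0.52 ± 0.10.

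The remaining lists were also read beside the 15.4% of all genes called higher and the 14.3% called lower. Over 12 arrays as well these shares of all genes were 3.61% and 3.75%. Of 57 subtelomeric genes 15 were higher and 5 lower (median 0.14), but 1 and 2 over 12 arrays as well. Of 15 vacuolar ATPase genes 5 were higher and 1 lower, led by vma3 (1.03 ± 0.20), and 2 and 1 over 12 arrays as well. Of 28 RNAi and heterochromatin genes 4 were higher and 5 lower, 3 and 0 over 12 arrays as well, from clr2 at −1.12 to the HP1-family gene chp2 at 0.81. Of 18 flocculin genes 1 was higher and 4 lower, and of 91 mug genes (meiotically upregulated) 16 were higher and 17 lower, with 0 flocculin genes and 2 higher and 5 lower mug genes over 12 arrays as well. Of 8 thiamine genes 1 was higher, of 10 strain marker genes 2 were higher and of 4 tubulin genes 2 were lower, 0 of these over 12 arrays as well. Without double-labelled replicate 3, 1045 of all genes were higher and 906 lower. In the thiamine list 4 were then higher and 1 lower, in the RNAi list 8 and 6, and in the U2AF and SR list 4 and 7. In the sugar list 3 were higher and 5 lower, and in the flocculin list 2 and 5.

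**Figure D3:**
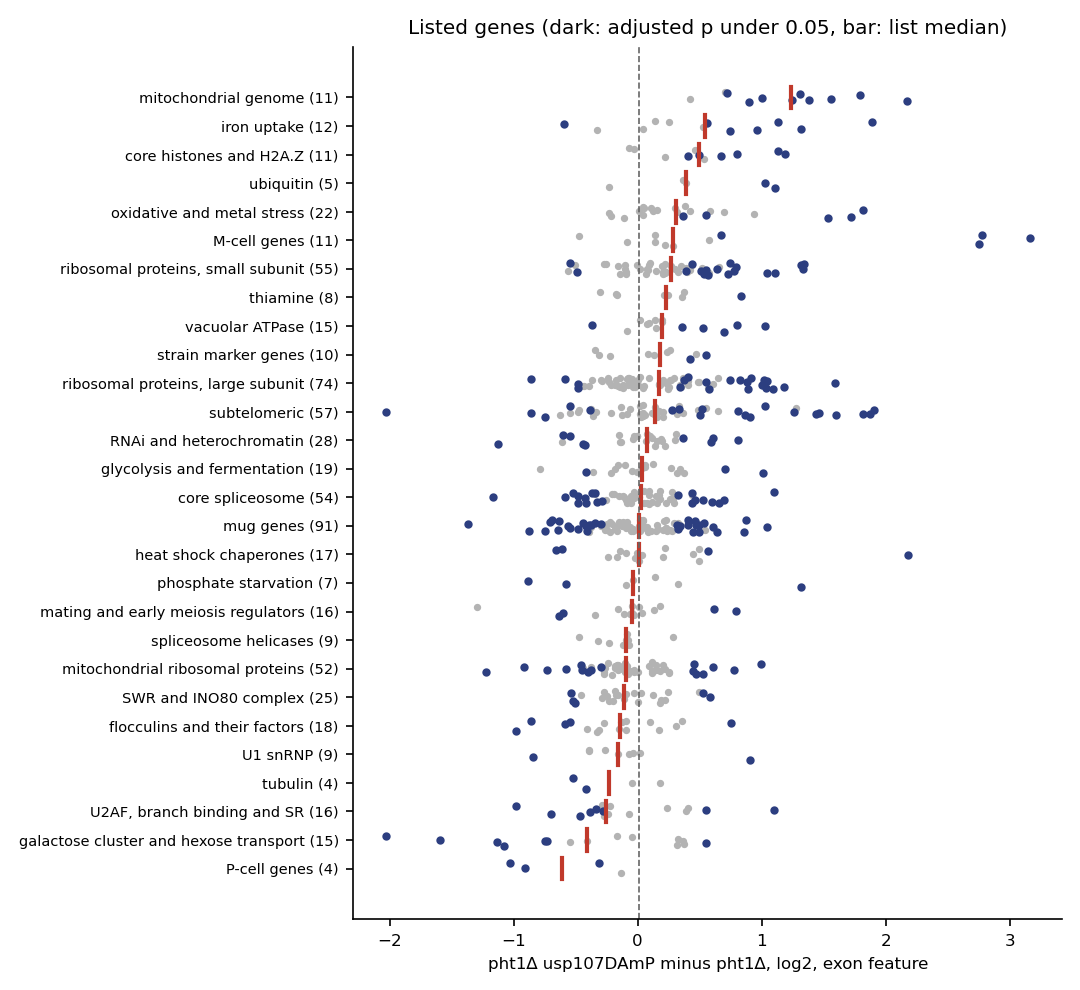
Differences in exon feature (arrays labelled pht1∆ usp107DAmP minus pht1∆, log2) of the genes of each list, with the number measured in brackets. Dark points passed the adjusted p of 0.05 over 30 arrays, the bar is the list median and the dashed line the median of all genes at 0.01; the mitochondrial genome has the highest median (1.24) and the P-cell list the lowest (−0.61).

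The splicing index changed in both directions, and for most called introns it was the exon feature that differed more. By index 519 of 4821 introns (10.8%) were higher on the double-labelled arrays and 337 (6.99%) lower, in 613 genes. Over 12 arrays as well the counts were 53 (1.1%) and 25 (0.519%), and with the 6 arrays alone 12 introns passed in all. Without double-labelled replicate 2 the total of 856 became 370, and without replicate 3 it became 1087. Among the 519 the median difference was 0.23 in the intron feature and −0.45 in the exon feature, and the larger of both was that of the intron feature in 26.4%. Among the 337 the medians were −0.12 and 0.59, and the share was 21.1%. Of 1085 introns whose exon feature differed by less than 0.1, 24 were called higher and 15 lower by index. Intron features by themselves were called in 304 introns, 213 higher and 91 lower. When introns with repeated values were left out, the index was called in 559 introns, 350 higher and 209 lower.

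Several of the introns with the largest falls had a high index on the pht1∆ arrays. Intron 1 of bud20, a gene for a factor of ribosome assembly, stood at 4.30, 3.43 and 3.62 on the pht1∆ arrays, at 1.67, 1.11 and 0.42 on the double-labelled arrays, and at a mean of −0.07 in usp107DAmP. The fall of 2.72 (standard error 0.35, adjusted p = 1.51e-05) came with differences of −1.96 in the intron feature, 0.75 in the exon feature and 0.57 in the junction of its exons. Intron 1 of SPAC186.08c gave 3.18, 1.61 and 2.46 against −0.01, 0.32 and 0.24 (−2.23 ± 0.28), with a difference of 0.02 in the exon feature and of −2.21 in the intron feature. Intron 1 of rpc82, for an RNA polymerase III subunit, gave 2.5, 1.55 and 2.23 against 0.13, 0.63 and −0.03 (−1.85 ± 0.22). Intron 3 of pre5, for a proteasome subunit, gave 0.92, 1.14 and 1.44 against −1.02, −0.77 and −0.24 (−1.85 ± 0.24), largely through an exon feature higher by 1.42. In these 4 introns every double-labelled array lay below every pht1∆ array. Intron 1 of mfm2 differed by −3.01 ± 0.36 in index, but its intron feature differed by only 0.15, and the value repeats the change of the transcript.

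The letters of these introns are shown because their 5′ splice sites and branch sequences are what the U1 snRNP and the later spliceosome read. They are from the RefSeq annotation of assembly ASM294v3. Introns were matched by their number, taken to count from the 5′ end, in genes whose annotated number of introns equals the highest number on the array. The sources do not name the genome build behind the probes. Capitals mark the first 6 bases, the last CTNAC (a common form of the fission yeast branch sequence, searched on the transcript strand in the last 60 bases) where there is one, and the last 3 bases. All lie between coding exons.
bud20 intron 1 (chrI:4904041-4904099, minus strand): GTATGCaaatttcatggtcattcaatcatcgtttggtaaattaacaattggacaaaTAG
SPAC186.08c intron 1 (chrI:5549820-5549955, minus strand): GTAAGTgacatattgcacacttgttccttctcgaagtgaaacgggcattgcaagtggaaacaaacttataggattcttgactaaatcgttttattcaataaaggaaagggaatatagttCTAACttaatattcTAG
rpc82 intron 1 (chrI:3286668-3286746, plus strand): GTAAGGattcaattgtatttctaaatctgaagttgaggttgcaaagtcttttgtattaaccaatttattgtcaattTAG
elo2 intron 1 (chrI:2812369-2812411, minus strand): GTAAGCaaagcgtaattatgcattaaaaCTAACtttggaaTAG
hem12 intron 4 (chrIII:1167324-1167372, plus strand): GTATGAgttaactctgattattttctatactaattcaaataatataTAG
cdc37 intron 3 (chrII:1831639-1831680, plus strand): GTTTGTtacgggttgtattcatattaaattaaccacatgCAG
ssu72 intron 1 (chrI:3176999-3177047, minus strand): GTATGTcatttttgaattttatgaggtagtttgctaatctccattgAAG
psg2 intron 2 (chrIII:528093-528189, plus strand): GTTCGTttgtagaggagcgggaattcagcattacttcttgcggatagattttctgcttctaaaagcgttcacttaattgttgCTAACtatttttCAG
The first 3 had a lower index on the double-labelled arrays and the next 3 a higher one, and in the last 2 the junction feature was lower.

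Among these introns the commonest 5′ site of the placed introns, GTAAGT, occurs in SPAC186.08c only. Of 4179 introns placed in the annotation 28.0% start with that site, as did 29.8% of the 456 with a higher and 29.6% of the 301 with a lower index. A CTNAC match lay in the last 60 bases of 56.5% of the placed introns, of 59.9% of those with a higher and of 56.5% of those with a lower index.

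Further introns fell with small or large differences in their exon features. Intron 2 of the phosphatase gene ptc3 gave 2.00, 0.89 and 1.95 against 0.30, 0.04 and 0.16 (−1.44 ± 0.25), with an exon feature at 0.18 and an intron feature at −1.26. Intron 8 of ers1, for a factor of RNAi heterochromatin, gave 2.40, 2.12 and 2.08 against 1.40, 0.60 and 0.56 (−1.35 ± 0.30), so that all its double-labelled arrays stayed above wild type. Intron 2 of SPAC222.18 (−1.72 ± 0.32) and intron 1 of the ubiquitin-conjugating enzyme gene ubc7 (−1.53 ± 0.36) were lower, the first with an exon feature higher by 1.11. Intron 1 of tif45, the gene of the cap-binding factor eIF4E, rested on pht1∆ replicate 3 at 2.96 (−1.54 ± 0.41), and without that array the difference was −0.77 with an adjusted p of 0.12.

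The introns with the largest rises lay below wild type on most pht1∆ arrays. Intron 1 of elo2, a fatty acid elongase gene, stood at −1.48, −0.08 and −0.46 on the pht1∆ arrays and at 0.90, 2.37 and 0.69 on the double-labelled arrays. It rose by 2.00 ± 0.35 (adjusted p = 0.000615), with the intron feature higher by 1.19, the exon feature lower by 0.80 and its junction at 0.10. Intron 4 of hem12, of heme synthesis, gave −0.81, −0.45 and −0.41 against 0.53, 1.08 and 1.15 (1.48 ± 0.21), with its junction lower by 0.97 and its exon feature by 1.01. Intron 3 of the Hsp90 co-chaperone gene cdc37 gave −0.82, −0.88 and −0.78 against 0.19, 0.92 and 0.72 (1.44 ± 0.21), with the intron feature higher by 0.78. In all 3 the groups were separate.

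Intron 2 of the RNA helicase gene dbp2 was higher by 1.43 ± 0.28 and came from the intron feature (1.12), but it missed the threshold over 12 arrays (adjusted p = 0.0577). Intron 2 of brc1, a DNA repair gene, gave −1.12, −1.15 and −0.37 against 0.72, 0.29 and 0.19, with the intron feature higher by 0.91 and its junction lower by 0.59. Intron 2 of the mitochondrial SPMIT.01 was higher by 1.54 ± 0.24, with its exon feature (0.72) and junction (0.68) higher too. Intron 4 of prp39 rose by 1.30 ± 0.20 and intron 2 of nxt3 by 1.35 ± 0.28. Intron 1 of the Sm protein gene smf1 (1.37 ± 0.39) was not called without double-labelled replicate 3 (0.83, adjusted p = 0.112) or without pht1∆ replicate 2 (1.16, adjusted p = 0.0777). Intron 2 of ell1 (1.33 ± 0.37) was not called without pht1∆ replicate 1 (0.77, adjusted p = 0.139) or double-labelled replicate 2 (1.11, adjusted p = 0.0914).

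**Figure D4:**
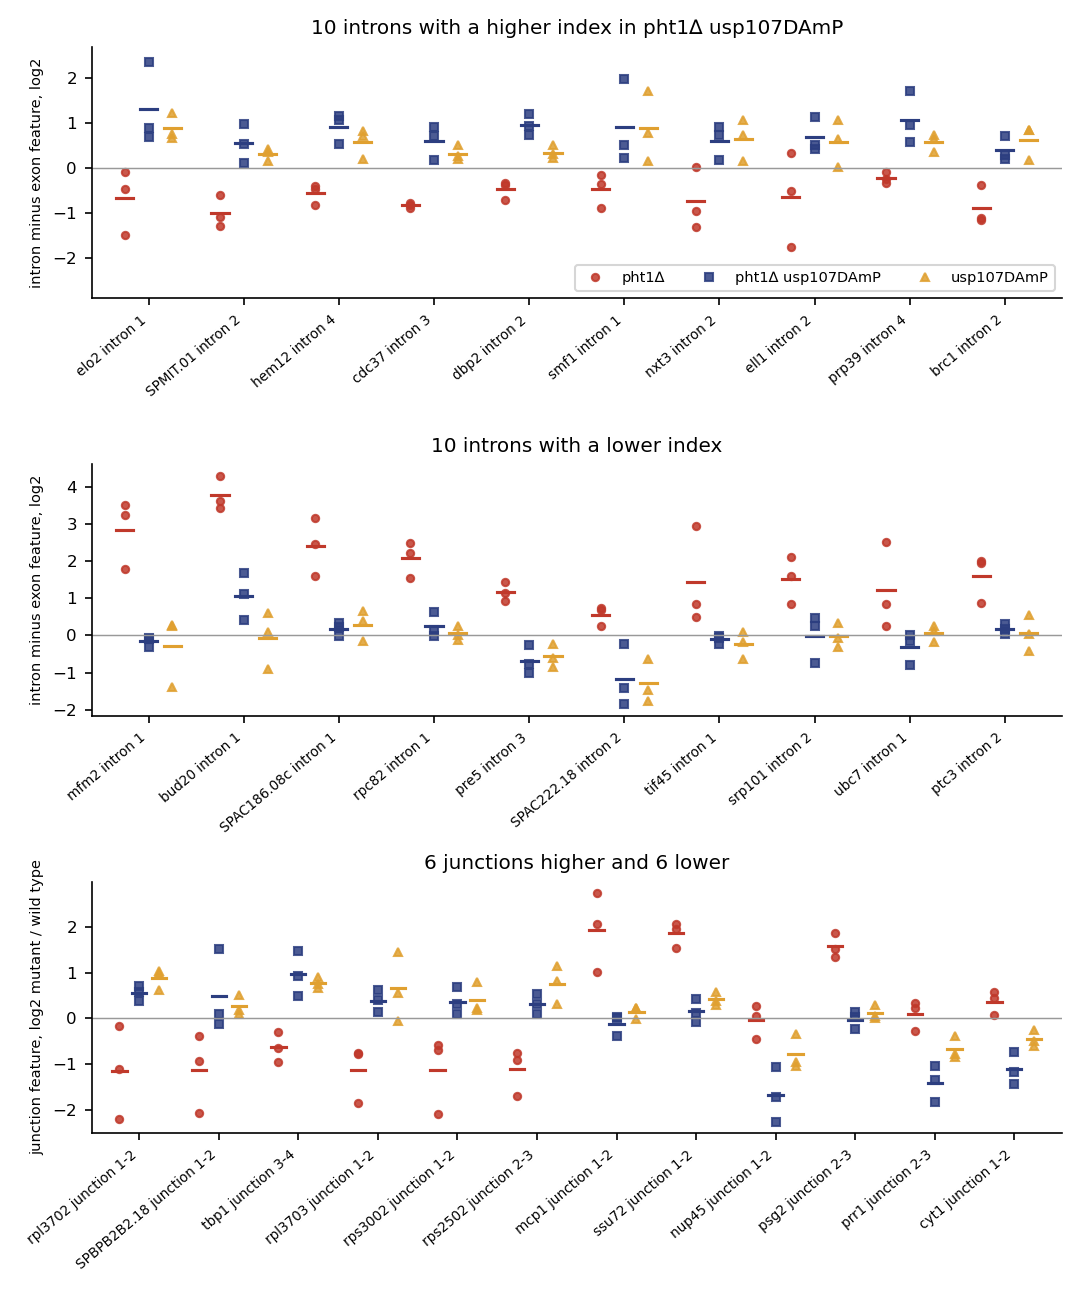
Splicing index (intron minus exon feature, log2) of the 10 introns with the largest rises and falls, and junction features (log2 of mutant over wild type) of the 6 junctions with the largest rises and falls, on the arrays of pht1∆, pht1∆ usp107DAmP and usp107DAmP. Points are arrays and short bars means of 3; in bud20 intron 1 the pht1∆ arrays lie above 3 and the double-labelled arrays between 0.42 and 1.67.

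In 56 genes at least 3 introns were called in one direction, beside 10.8% of all introns called higher and 6.99% lower. The genes with at least 3 introns were not counted, so no share is given. Introns of a gene share its exon feature, so a difference in that feature moves the index of all of them. In rsd1 all 6 introns were higher (0.72 to 1.12) while the exon feature was lower by 0.98 and the intron features ran from −0.26 to 0.14. In the kinase-like gene ppk3 all 6 were higher (0.62 to 0.76) with an exon feature lower by 0.59, and 0 of the 6 passed over 12 arrays. In prp39 5 of 6 introns were higher, 3 of them over 12 arrays as well, with intron features between −0.24 and 0.46. In naa25, of an N-terminal acetyltransferase complex, 5 of 7 were higher and in the arginine methyltransferase gene rmt1 5 of 8. In cnt5 all 5 introns were lower (−1.33 to −0.62) while the exon feature was higher by 0.79. In these 6 genes the called introns' own features all differed by less than the exon feature. Each ppk3 call was lost without at least 1 array, and those of cnt5 introns 1 to 4 were lost without pht1∆ replicate 1 (−0.67 to −0.40). With junction features as the reference, the index of rsd1 introns 1, 2, 3 and 5, of prp39 intron 5 and of cnt5 introns 1 to 4 had the opposite sign.

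Junction features were called lower far more often than higher. Of 4651 junctions 1020 (21.9%) were lower and 359 (7.72%) higher. Over 12 arrays as well 179 (3.85%) were lower and 75 (1.61%) higher, and with the 6 arrays alone 36 passed in all, 16 lower and 20 higher. Without double-labelled replicate 2 the total of 1379 became 819, of which 565 were lower, and without replicate 3 it became 1852. The median difference over all junctions was −0.13, against 0.01 for exon features. The median of all junction features per array was 0.01, 0.06 and −0.03 in pht1∆ and −0.12, −0.12 and −0.03 in the double-labelled arrays, so that double-labelled replicate 3 lay below all pht1∆ arrays by little. In usp107DAmP these medians were −0.07, −0.05 and −0.02. Relative to the exon feature of the same gene, an alternative chosen after the data were seen, 704 junctions were lower and 221 higher.

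Some of the lowest junctions had been high on the pht1∆ arrays. The junction of exons 1 and 2 of ssu72, for a phosphatase of RNA polymerase II, stood at 1.97, 1.55 and 2.07 on the pht1∆ arrays and at 0.44, −0.08 and 0.12 on the double-labelled arrays (−1.70 ± 0.22, adjusted p = 2.01e-05). Its exon feature was level (0.04) and so was the intron feature (0.08). The junction of exons 2 and 3 of psg2 gave 1.87, 1.34 and 1.52 against 0.14, 0.03 and −0.24 (−1.60 ± 0.15), and the junction of mcp1 gave 2.74, 1.03 and 2.06 against −0.38, 0.02 and 0.02 (−2.05 ± 0.34). The introns of these 3 genes at those junctions did not pass.

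Others started near wild type and ended below it. The junction of exons 1 and 2 of the nucleoporin gene nup45 gave 0.28, 0.06 and −0.46 against −1.06, −2.26 and −1.71 (−1.64 ± 0.27). The junction of exons 2 and 3 of prr1, a transcription factor of the oxidative stress response, gave 0.34, 0.23 and −0.27 against −1.34, −1.83 and −1.04 (−1.5 ± 0.18). The junction of exons 1 and 2 of cyt1, for cytochrome c1, gave 0.08, 0.59 and 0.44 against −0.74, −1.42 and −1.17 (−1.48 ± 0.16). On the usp107DAmP arrays their means were −0.78, −0.67 and −0.44, also below wild type. Their exon features differed by −0.45, −0.67 and −0.21, and the index of their introns did not pass.

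The highest junctions were in ribosomal protein genes and in tbp1, the gene of the TATA-binding protein. The junction of exons 3 and 4 of tbp1 gave −0.95, −0.65 and −0.29 against 1.48, 0.93 and 0.49 (1.60 ± 0.26), with an exon feature higher by 1.27. The junctions of rpl3702 (1.71 ± 0.34), rpl3703 (1.51 ± 0.28), rps3002 (1.5 ± 0.28) and rps2502 (1.43 ± 0.31) were higher. For rps3002 the exon feature was level (0.10), while the pht1∆ arrays lay at −0.70, −2.10 and −0.59 and the double-labelled arrays at 0.70, 0.09 and 0.32. The junction of the subtelomeric SPBPB2B2.18 was higher by 1.62 ± 0.34 (adjusted p = 0.0586 over 12 arrays).

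Index and junction can be read together for the 4609 introns that have both. The junction was taken as deposited here, so a change of the transcript alone moves index and junction in opposite directions. Among the 519 introns with a higher index 349 had an exon feature called lower. Among the 337 with a lower index 261 had one called higher. Of all genes 14.3% were called lower and 15.4% higher. The index subtracts the exon feature, so a call by index favours exon features that differ the opposite way. The index was higher and the own junction lower in 214 introns (4.64%), and the reverse held in 66 (1.43%), a rule chosen after the data were seen. Over 12 arrays as well 3 and 2 introns met it. In the first 3 the index rose and the junction fell: hem12 intron 4, fft1 intron 2, of a chromatin remodelling gene (index 0.86, junction −0.77), and SPAC30C2.08 intron 1 (0.83 and −0.55). For fft1 the index was −0.53, −0.46 and −0.40 on the pht1∆ arrays and 0.53, 0.20 and 0.47 on the double-labelled arrays. Its junction was 0.45, 0.63 and 0.17 against −0.70, −0.22 and −0.14, so neither measure overlapped. The other 2 were intron 1 of pop4, of RNase P (index −0.83, junction 0.66), and intron 3 of arp8, an INO80 subunit gene (−0.97 and 0.93). For arp8 the index was 1.11, 0.48 and 0.41 against −0.43, −0.31 and −0.18, and the intron feature was lower by 0.73. In these 5 introns the exon feature differed in the direction opposite to the index. In hem12 (−1.01) and pop4 (0.75) it differed by more than the junction (−0.97 and 0.66). In fft1, SPAC30C2.08 and arp8 it differed by less (−0.47, −0.42 and 0.25). The rule cannot tell a change in splicing from a change of the transcript.

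**Figure D5:**
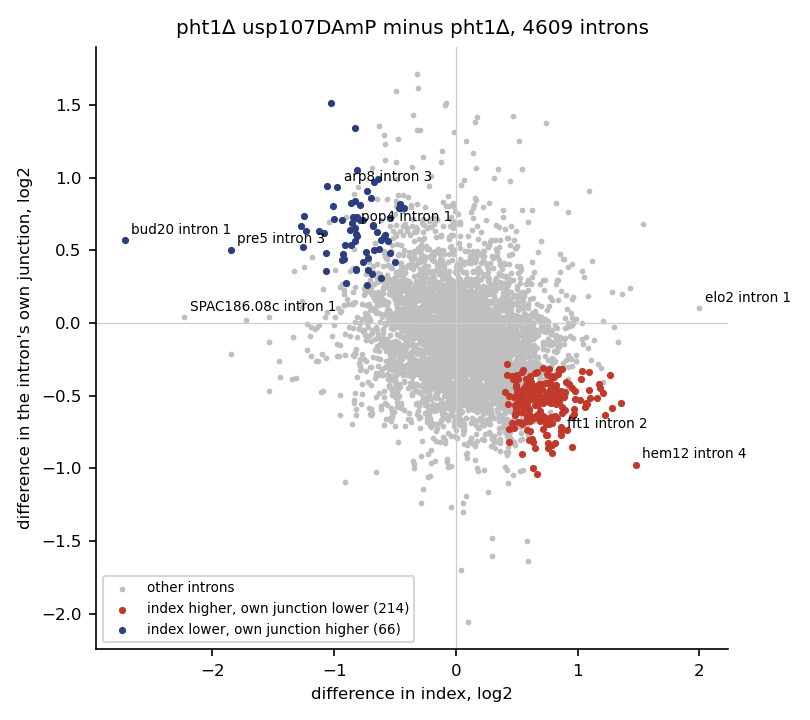
Difference in splicing index against difference in the junction of the same intron (arrays labelled pht1∆ usp107DAmP minus pht1∆, log2) for 4609 introns. Red points have a higher index and a lower junction (214), blue points the reverse (66); elo2 intron 1 and SPAC186.08c intron 1 have large index differences with junctions near 0.

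These shares were set beside intron length and splice site strength. The index was higher in 11.5% of introns of 49 bases or fewer and in 10.5% of those of 71 bases or more, and lower in 7.26% and 7.5%. By the match of the first 6 bases to annotated introns, it was higher in 10.6% of the introns with the weakest and in 11.5% of those with the strongest sites, and lower in 6.51% and 7.56%. Per array, the median index of weak-site minus that of strong-site introns was −0.0038, 0.0148 and 0.0274 in pht1∆ and −0.0389, −0.0169 and −0.0177 on the double-labelled arrays. The groups did not overlap (difference −0.0373, exact two-sided permutation p = 0.1, the smallest that 3 against 3 arrays allow). For short minus long introns the difference was 0.0145 (exact p = 0.6). By position, 24.3% of the junctions after the first exon of genes with several introns were lower and 5.24% higher, against 18.8% and 12.5% of the last junctions of such genes. The differences of shares between these classes were not tested.

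Whether the difference from pht1∆ departs from that of usp107DAmP to wild type was asked with an interaction, the double-labelled mean minus the means of both single mutants. It keeps minus 1 times any offset shared by all arrays. Where the double-labelled and usp107DAmP values are alike it equals minus the pht1∆ value, and it cannot then be told apart from a deletion absent from the double-labelled RNA. It passed in 52 transcripts (1.03%), 32 higher and 20 lower, in 14 introns by index (0.29%) and in 26 junctions (0.559%). The same-numbered arrays of the double-labelled and usp107DAmP groups deviate together. A limma fit with the replicate number as a block used only the arrays of the double-labelled, pht1∆ and usp107DAmP groups. In it 1 transcript, gal10 (adjusted p = 0.0465), 1 intron, intron 8 of ers1 (0.0266), and 3 junctions passed. The lower counts mix the block with fewer arrays, and these cannot be told apart. Over the 12 arrays at 30 °C 7 transcripts, 3 junctions and 0 introns passed in limma's fit, where 213 introns had an unadjusted p under 0.05. Without usp107DAmP replicate 1 the transcripts were 30, without pht1∆ replicate 3 they were 120, and without double-labelled replicates 1 and 3 they were 107 and 148. The introns were 9 without pht1∆ replicate 1, 8 without usp107DAmP replicate 1, and 23 and 33 without double-labelled replicates 1 and 3.

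For gal10 the double-labelled arrays differed from pht1∆ by −2.03, while usp107DAmP stood at 0.91, 0.40 and 0.14 against wild type, an interaction of −2.52 ± 0.23. For mfm2 the corresponding value was 3.20 ± 0.36, with usp107DAmP at −0.16, −0.27 and 0.31 and a pht1∆ mean of −2.87. In both the double-labelled arrays lay near wild type, as usp107DAmP did. The block left mfm2 with an adjusted p of 0.126 and mat1-Mc with 0.181. In hsp9 (−0.34 ± 0.44) and trx1 (0.07 ± 0.41) the interaction did not pass, and the rises of 2.18 and 1.72 over pht1∆ stood beside means of 2.51 and 1.65 in usp107DAmP over wild type.

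At the edge of the threshold, mhf2, mbx1 and htd2 were the last transcripts called, with differences of −0.29, −0.39 and −0.35 and adjusted p from 0.0497 to 0.0499, and each was lost without double-labelled replicate 2 (adjusted p from 0.194 to 0.339) and without a pht1∆ array. The transcripts yih1 (−0.26), gyp7 (0.56) and ppa2 (−0.37) just missed it, with adjusted p of 0.0502, 0.0503 and 0.0503.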

How the data were processed

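RNA of 30 arrays in 10 groups of 3 was hybridised against wild-type RNA, per the labels. The deposited table holds 14556 features as log ratios, read as log2 of Cy5 over Cy3 (mutant over wild type), because the dyes in the labels give the direction. The sources name no logarithm base, scanner software, background correction, normalization or probe summary; natural logarithms would enlarge every log2 value by a constant. Array medians lay between −0.006 and 0.0254. There is no dye swap, but a constant dye bias cancels between groups.

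Of 5082 genes, 4806 were named by locus tag and 200 by synonym in the annotation of ASM294v3. The index was computed for 4821 introns of 2315 genes; 15 introns lacked an exon feature and are not analysed here. limma 3.58.1 in R 4.3.3 (lmFit, eBayes) fitted group means over all 30 arrays (20 residual degrees of freedom), with two-sided tests and Benjamini-Hochberg adjustment over all features of a kind at 0.05. Errors after ± are its standard errors, with n = 3 arrays a group. The number of arrays limits the precision, and signal over background was not used here. Members and lists were chosen with earlier results of these data known, and the list of the mitochondrial genome was added after its values were seen. Lists are described by counts and medians without a test. Named features are the 10 transcripts and introns and the 6 junctions with the largest called difference in each direction among groups that do not overlap. Also named are the 6 genes with most introns called one way, up to 4 called members of each list, the targeted genes, the 3 transcripts on each side of the threshold and the 4 largest interactions each way. Alternatives were other sets of arrays, the replicate block (on the arrays of the compared groups alone), equal spread, centring on exon features and array weights. Others were a variance trend, a 1.5-fold minimum, other references for the index and leaving out each array. The fit was tested on simulated data.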

Additional observations from a re-analysis of the deposited data

Results flagged for a closer look

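The following results were marked for a closer look because the difference between the double-labelled and pht1∆ arrays departed from that between usp107DAmP and wild type, by the interaction test of limma over 30 arrays. Values are interactions on the log2 scale. Among transcripts, they were 3.20 for mfm2, 2.75 for mat1-Mc, 2.83 for mat3-Mc and 2.22 for nrg1, and −2.37 for SPCC1739.08c, −2.52 for gal10, −1.71 for rsv1 and −1.78 for gut2, a glycerol phosphate dehydrogenase gene. For gut2 the usp107DAmP arrays stood at 1.39, 1.51 and 0.24 and the pht1∆ arrays at 1.05, 0.80 and 1.29, while the double-labelled arrays were at 0.26, 0.98 and −0.29.

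By splicing index they were −2.73 for mfm2 intron 1, −2.65 for bud20 intron 1, −2.53 for SPAC186.08c intron 1 and −2.08 for ers1 intron 8, and 1.44 for hpz1 intron 1, 1.08 for nta1 intron 1 and 0.90 for prf1 intron 1. Among junctions they were −2.20 for mcp1, −2.12 for ssu72, −1.73 for psg2 and −1.35 for puf3 (exons 2 and 3), and 1.56 for cnp3, 1.18 for SPAC27E2.14, 0.88 for tbc1 and 0.85 for csn5 (exons 2 and 3). The junction of cnp3 stayed below wild type on all double-labelled arrays (−1.93, −0.89 and −0.69) after −2.53, −2.30 and −2.43 in pht1∆. With the replicate number as a block, on the arrays of the compared groups alone, gal10, intron 8 of ers1 and 2 junctions passed among these. The junctions were those of ssu72 (adjusted p = 0.0065) and psg2 (0.0234).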

How the results depend on the processing

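Against 1507 transcripts, 856 introns by index and 1379 junctions called over 30 arrays, the 6 arrays alone called 5, 12 and 36, and the 12 arrays at 30 °C called 374, 78 and 254. Scaling all arrays to equal spread left 525, 100 and 424, and array weights left 951, 304 and 536. Requiring a 1.5-fold difference left 603 transcripts and 523 junctions. Leaving out 1 array at a time gave 857 to 1951 transcripts, 370 to 1087 introns and 819 to 1852 junctions. The intron feature alone was called in 304 introns, and without repeated values the index was called in 559. With junctions as the reference 868 introns were higher and 156 lower by index, and with exons and junctions 656 and 200, against 519 and 337. Deviations of same-numbered double-labelled and pht1∆ arrays correlated negatively (r from −0.233 to −0.133 over transcripts), so no shift shared by number was seen. With the replicate number as a block, fitted on the 6 arrays alone, limma called 0 transcripts (889 at an unadjusted p under 0.05), 14 introns and 16 junctions. Same-numbered double-labelled and usp107DAmP arrays did deviate together (0.603 to 0.745). The interaction passed in 52 transcripts and 14 introns over 30 arrays. With the block, on the arrays of the compared groups alone, it passed in 1 and 1, and over 12 arrays in 7 and 0. With equal spread it passed in 23 and 3, and leaving out 1 array in 30 to 148 and 8 to 33.

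The sign of the index turned for mfm2 intron 1 with the intron feature alone (0.15) and for hpz1 intron 1 with junctions (−1.15), exons and junctions (−0.025) or the intron feature alone (−0.24). With junctions as the reference it turned for rsd1 introns 1, 2, 3 and 5 (−0.14, −0.20, −0.17 and −0.033), prp39 intron 5 (−0.028) and cnt5 introns 1 to 4 (0.27, 0.27, 0.30 and 0.098). With the intron feature alone it turned for the same rsd1 introns (−0.20, −0.26, −0.23 and −0.093), prp39 intron 5 (−0.24) and cnt5 introns 1 to 3 (0.13, 0.13 and 0.17). Of 184 named features 94 stayed on their side of the threshold over 12 arrays, 31 with the 6 arrays alone and 29 with the replicate block on those 6 arrays. With equal spread 113 stayed, and with centring on exon features 181. The causes were not tested. The number of arrays limits these results, and signal over background was not used here.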
